A study of Mus musculus with 12 samples.

Results

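Toll-like receptor genes, co-receptor genes and adaptor genes, 10 in all, were followed through the open chromatin of mouse macrophages: Tlr1, Tlr2, Tlr4, Tlr6, Tlr9, Cd14, Ly96, Myd88, Tirap and Ticam1. Each gene was taken with 50 kb on each side, and every peak called there in any of 12 ATAC-seq libraries was kept. ATAC-seq marks open DNA by letting a transposase cut and tag it. Overlapping peaks of different libraries were merged, which gave 158 regions in the windows of these 10 genes, out of 144562 autosomal regions in all. The genes were put together because of values in these data: 1 region upstream of Tlr2 was called mostly in Baf60a knockout libraries. Its calls by genotype chose it, so they are described here without a test.

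The cells were bone marrow-derived macrophages (BMDMs), cultured from mouse marrow. The Smarcd1 gene encodes Baf60a, a part of the SWI/SNF complex, which moves and evicts nucleosomes. The first cohort held 1 Omni-ATAC library in each of 4 groups: wild type (WT) untreated, Baf60a knockout (KO) untreated, WT with oxidised LDL (oxLDL) and KO with oxLDL. Its labels give neither the alleles nor the ApoE status. The ApoE KO cohort held 2 libraries in each of the same 4 groups, made with a Nextera kit from BMDMs that had been frozen. Every library of that cohort, the WT included, lacked ApoE and carried floxed Baf60a alleles (f/f), with Lyz2 Cre absent in WT and present in KO. Lyz2 drives Cre in myeloid cells and not in macrophages alone. The oxLDL dose was 50 µg/ml for 48 h. Age and sex were not used here. The labels do not say whether libraries of a group stem from different animals or cultures. The p-values therefore cover only the spread between these libraries, which may be technical. Where a fit takes both cohorts, that spread also holds differences of the group effects between the cohorts.

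Peak lists were far longer in the first cohort (80394 to 138132 autosomal peaks) than in the ApoE KO cohort (24397 to 44524). Without the reads, the sequencing depth behind each list is unknown, so a missing call means only that no peak was called. Macrophage identity was visible in the gene starts and ends: of 10 macrophage marker genes, 10 had a boundary peak (1 within 1 kb of either end of the gene) in each first-cohort library and 8 to 10 in each ApoE KO library. Of 6 B cell markers, 3 to 5 had one in the first cohort and 0 to 2 in the ApoE KO cohort. Of 7 T and NK cell markers the counts were 1 to 3 and 1 to 2, and of 7 neutrophil markers 2 to 3 and 1. Of 5 mast cell and basophil markers they were 1 and 0, of 6 dendritic cell markers 3 to 5 and 1 to 3, and of 6 erythroid and megakaryocyte markers 4 to 6 and 1 to 4. The part of other cell types in the values below was not tested.

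Toll-like receptors are innate immune receptors that recognise microbial molecules. TLR2 pairs with TLR1 or TLR6 on the cell surface and binds lipoproteins. TLR4 binds lipopolysaccharide (LPS) together with MD-2, the product of Ly96, after CD14 has handed the LPS over, and TLR9 meets DNA in endosomes. Signals pass through MyD88, which TIRAP bridges to TLR2 and TLR4, or through TRIF, the product of Ticam1, and lead to NF-kB, AP-1 and interferon regulatory factors. In macrophages TLR4 and TLR6 are also known for a part in the response to oxLDL.

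Chromatin around these genes was called open more often than an average region. Of the 158 regions, 39 (24.7%) were called in 12 of 12 libraries. The other 119 (75.3%) were missing in 1 or more libraries, against 88.0% of all regions. A call in 1 library only was seen for 24 (15.2%), against 25.5% of all. The share with no call in the ApoE KO cohort was 40.5% (64 regions), against 60.8% of all regions. No ApoE KO call together with a call in every first-cohort library was seen for 19 of the 158 (12%), against 15.7% of all regions. The median merged length was 529.5 bp, against 408 bp over all regions. These shares were not compared with the windows of other genes.

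Cd14, Tlr9 and Ticam1 held the most peaks in both cohorts, though their ranges overlapped those of other genes. In lists cut to equal length within a cohort by keeping the peaks with the highest scores, Cd14 had 14 to 17 peaks in the first cohort and 7 to 11 in the ApoE KO cohort. Tlr9 had 15 to 19 and 6 to 10, and Ticam1 13 to 17 and 6 to 9. Below these the order differed between the cohorts. Tirap (6 to 8) and Myd88 (8 to 9) were lowest in the first cohort, while in the ApoE KO cohort Tlr6 was lowest and Tirap (3 to 4) and Myd88 (4 to 6) lay among the other genes. Tlr6 and Tlr1 had the largest relative drop between the cohorts, from 9 to 14 peaks down to 2 in each of the 8 ApoE KO libraries at Tlr6, and from 12 to 15 down to 3 to 4 at Tlr1. Tlr4 went from 11 to 16 down to 3 to 5, Tlr2 from 11 to 15 down to 4 to 6, and Ly96 from 10 to 12 down to 4 to 7. Cohort, protocol, freezing, peak caller and list length changed together, so they cannot be told apart.

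**Figure D1:**
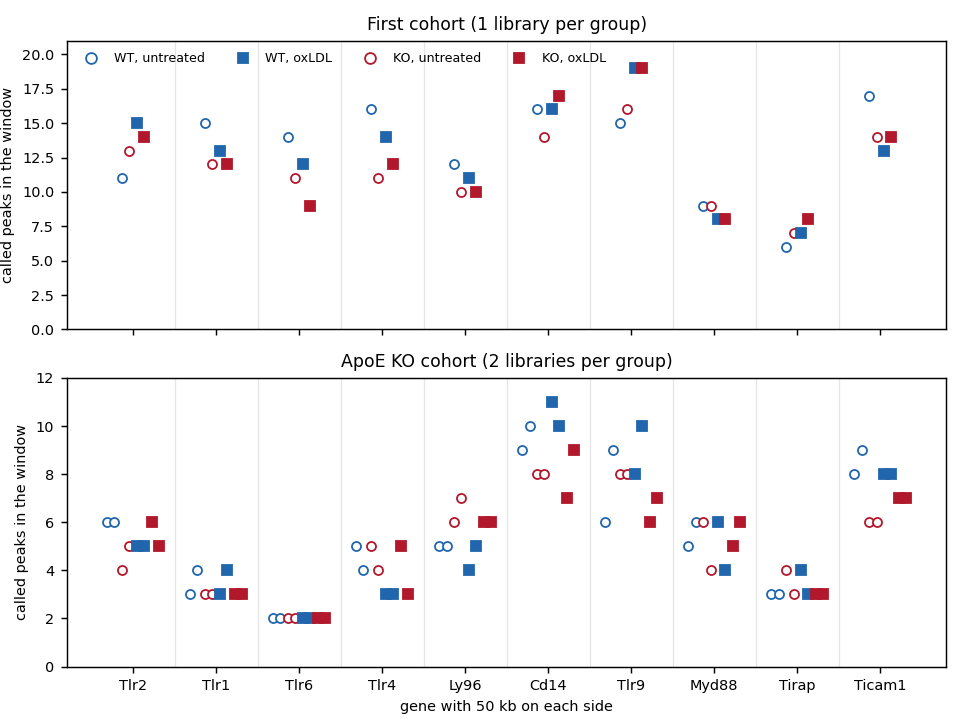
Called peaks (y axis, count in lists of equal length within a cohort) in the window of each gene (x axis, the gene with 50 kb on each side). Each point is 1 library, blue for WT and red for KO, open for untreated and filled for oxLDL; the Tlr6 window holds 2 peaks in each of the 8 ApoE KO libraries.

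The gene starts fell into 3 kinds. A called region lay over the start, or over the gene boundary nearest to it, in 12 of 12 libraries at Tlr4, Ly96, Cd14, Tirap and Ticam1. At Tlr2, Tlr9 and Myd88 it was called in every first-cohort library and in part of the ApoE KO libraries. At Tlr1 and at the 2 listed starts of Tlr6, which lie inside the gene, it was called in the first cohort only. The upper gene boundary of Tlr6 differed: a region that ends 130 bp inside it was called in 11 of 12 libraries, 7 of them of the ApoE KO cohort. The score of each peak is given below as a percentile among all autosomal peaks of its own library, where 100 is the highest score.

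**Figure D2:**
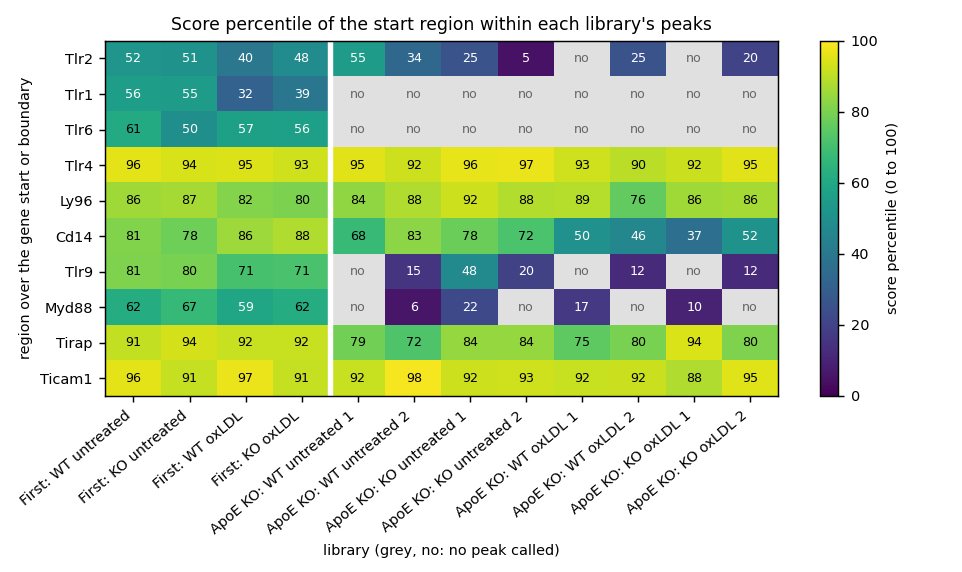
Score percentile within the library (colour and printed value, 0 to 100) of the region over the start or boundary of each of the 10 genes (rows) in each of the 12 libraries (columns, first cohort left of the white line). Grey cells marked "no" had no called peak; Tlr4 and Ticam1 stay at 88 or above in all libraries, while the regions drawn for Tlr1 and Tlr6 (a listed start inside the gene) have calls only in the first cohort.

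TLR2 is the shared partner of the lipoprotein receptors. Its gene lies on the minus strand of chromosome 3 (mm10, 83836272 to 83841824). The region over its start (83840896 to 83841853) was called in 10 of 12 libraries. Its percentiles in the first cohort were 52.1 in WT untreated, 51.3 in KO untreated, 39.6 in WT oxLDL and 48.4 in KO oxLDL. In the ApoE KO cohort they were 55.0 and 33.5 in WT untreated, 25.4 and 5.0 in KO untreated, 25.4 in 1 WT oxLDL library and 20.4 in 1 KO oxLDL library. The other WT oxLDL and the other KO oxLDL library had no call there. So the start itself was a middling to low peak, and WT and KO overlapped.

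The strongest Tlr2 peaks stood upstream, between genes. The region 43040 bp upstream (83884864 to 83885708) reached percentiles of 98.4 to 99.6 in the first cohort and 95.6 to 99.8 in the ApoE KO cohort. The region 20991 bp upstream (83862815 to 83863949) had 88.3 to 96.8 and 94.1 to 98.0, and the region 3035 bp upstream (83844859 to 83845752) had 83.6 to 88.4 and 86.0 to 96.8. All 3 were called in 12 of 12 libraries, and Tlr2 was the only protein-coding gene in its window.

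The Tlr2 region called mostly in KO lay 23388 bp upstream of the gene (chromosome 3, 83865212 to 83865642, 431 bp), next to the strong region at 20991 bp. In the first cohort its score percentile was 37.2 in WT untreated, 52.7 in KO untreated and 45.6 in KO oxLDL, and no peak was called in WT oxLDL. Of the ApoE KO libraries, 3 with the KO genotype had a call, with percentiles of 25.1 in KO untreated 1, 66.9 in KO oxLDL 1 and 54.1 in KO oxLDL 2. KO untreated 2 and all 4 WT libraries of that cohort had no call. Calls thus numbered 5 of 6 in KO and 1 of 6 in WT, and the WT call, in the first cohort, had a lower percentile than both KO calls beside it. Peak widths were 268 bp in that WT library, 333 to 397 bp in the first-cohort KO libraries and 144 to 304 bp in the ApoE KO cohort. The fold enrichment that the peak caller gave in the ApoE KO cohort was 2.75, 4.37 and 3.33, against 6.86 to 11.3 at the strong region beside it.

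That call pattern is rare but not unique among all regions. Of 144562 regions, 55 (0.0380%) were called in at least 5 of 6 KO and at most 1 of 6 WT libraries, and 2 (0.00138%) the other way round. Since the region was picked by this rule, nothing is read from the share. Among the 55 it ranked 4th by mean percentile (23.5, with missing calls as 0). Of all regions, 42 had exactly 5 KO calls and 1 WT call. Just outside the threshold lay 190 regions with 4 KO calls and 1 WT call and 824 with 5 KO calls and 2 WT calls. Another 17 regions had the same call in each of the 12 libraries, and 479 differed in 1 library. The 5 of these 17 with the highest mean percentile lay in Arpp21 (22.1), Arsj (19.7), Ildr2 (19.4), Gdap1 (17.5) and Cngb3 (17.1). With lists of equal length the Tlr2 region kept 4 KO calls and 1 WT call, since KO untreated 1 dropped out. When a call had to cover at least 50% of the region it also kept 4 and 1, since KO oxLDL 1 dropped out. KO lists of a matched treatment were longer than WT lists in the first cohort (138132 against 106477 untreated, 93867 against 80394 with oxLDL). In the ApoE KO cohort they were also longer with oxLDL (35589 and 33934 against 27571 and 24397). Untreated lists overlapped there, with 44524 and 33267 in KO and 29064 and 39303 in WT. KO untreated 1, whose call dropped out at equal length, was the longest of that cohort. The part of list length in the calls was not tested beyond the lists of equal length.

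**Figure D3:**
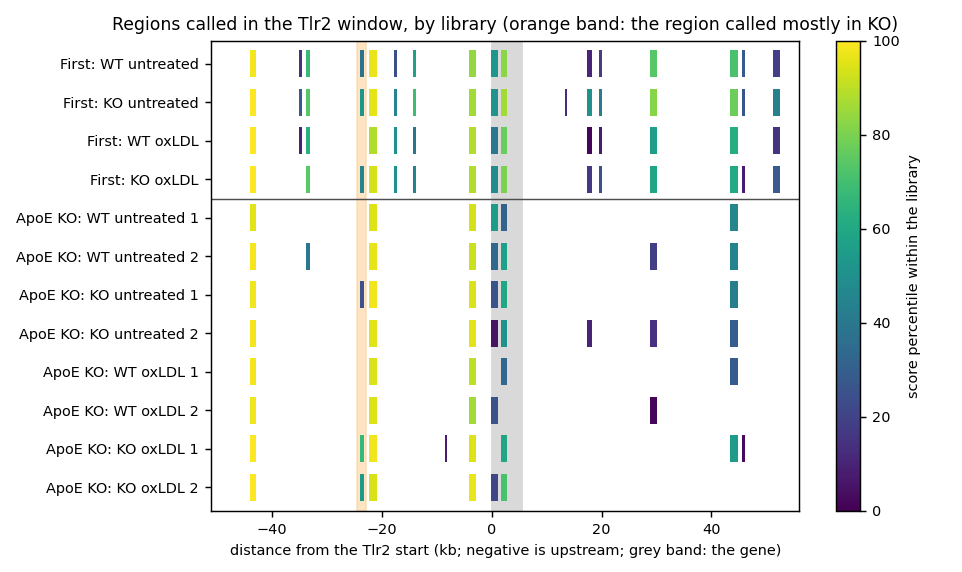
Regions called in the Tlr2 window in each library (rows), at their distance from the gene's start (x axis, kb, negative is upstream) and coloured by score percentile within the library. The orange band marks the region 23388 bp upstream, with 5 of 6 calls in KO and 1 of 6 in WT; the 3 regions called in all libraries lie upstream of the gene (grey band).

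No other region in the 10 windows was so divided. Of all regions, 0.246% had at least 4 more calls in KO and 0.00415% had at least 4 more in WT. The Tlr2 region, picked by its calls, met this for KO through its selection, so it is not set against that share. No other of the 158 regions met it for either genotype. For treatment, 0 of 158 regions had at least 4 more calls in untreated libraries (0.266% of all) or in oxLDL libraries (0.00208% of all). None had at least 5 of 6 untreated calls with at most 1 oxLDL call (0.0401% of all) or the reverse (0% of all). A difference of 3 calls was met by 1 region for KO (1.45% of all) and 0 for WT (0.0470%), by 4 for untreated (1.72%) and by 0 for oxLDL (0.0643%). These 5 regions are named after their values were seen. The KO one lay 28562 bp on the lower-coordinate side of Ly96 (chromosome 1, 16659471 to 16659894). It was called in all 4 first-cohort libraries, in 3 of 4 ApoE KO-cohort KO libraries and in 0 of the 4 WT libraries there. Its percentiles were 57.5 to 67.0 in the first cohort, and 40.2, 75.7 and 52.9 in the 3 KO libraries. Of the untreated ones, 2 were Cd14 regions on the lower-coordinate side. The region at 33155 bp had 5 untreated and 2 oxLDL calls, with 3 of 4 untreated and 0 of 4 oxLDL libraries in the ApoE KO cohort. The region at 22988 bp had 6 and 3, with 4 of 4 and 1 of 4 in that cohort. The others were a Tlr4 region at 32940 bp on the lower-coordinate side and a Myd88 region 6683 bp downstream, each with 3 untreated and 0 oxLDL calls.

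Within the ApoE KO cohort alone, 24 of the 158 regions (15.2%) were called in KO libraries only, against 9.96% of all regions. In WT libraries only, 3 (1.90%) were called, against 3.89% of all. Regions with no call in that cohort are counted in these shares, and they made up 40.5% of the 158 but 60.8% of all. Nothing is therefore read from the distance between the shares. The 24 include the Tlr2 region and the Ly96 region at 28562 bp. List lengths differed between the genotypes as given above, and their part in these counts was not tested.

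Tlr1 and Tlr6, the partners of Tlr2, are neighbours on the minus strand of chromosome 5 (64924680 to 64933600 and 64953092 to 64970942), so their windows share regions. The region over the Tlr1 start (64932232 to 64933861) had percentiles of 55.7 in WT untreated, 55.4 in KO untreated, 31.5 in WT oxLDL and 39.4 in KO oxLDL of the first cohort. No ApoE KO library had a call there. The same held at the Tlr6 start at 64960048 (region 64959983 to 64960222), with 61.3, 49.7, 57.0 and 56.3 in the first cohort. A region 64960601 to 64961866, inside the longest Tlr6 transcript and just upstream of that start, was called in 12 of 12 libraries with percentiles of 88.9 to 92.9 in the first cohort and 78.7 to 92.3 in the ApoE KO cohort. A region called throughout thus lay near both genes, while the peaks over the Tlr1 start and over the listed Tlr6 starts were seen in the first cohort only.

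The region 130 bp from the upper boundary of Tlr6 (64969040 to 64970812), over a start of the neighbouring Fam114a1, was called in 11 of 12 libraries. Its percentiles were 94.8 to 96.4 in the first cohort and 15.4 to 60.4 in the 7 ApoE KO libraries with a call. Downstream of Tlr1, at 39760 bp, a region called in all libraries ran from 94.3 to 98.5 in the first cohort and from 46.9 to 83.0 in the ApoE KO cohort. A region 9465 bp upstream of Tlr6, in Fam114a1, was called in 6 libraries, at 88.0 to 99.9 in the first cohort and at 34.4 and 44.1 in 2 ApoE KO libraries. At these 3 regions the ApoE KO percentiles were the lower ones. Percentiles among all peaks depend on list length, which differed between the cohorts, so nothing is read from this. The part of list length was not tested.

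Tlr4 encodes the LPS receptor and Ly96 its MD-2 subunit. The region at the lower boundary of Tlr4 (chromosome 4, 66827170 to 66829356) was among the strongest at these genes, with percentiles of 92.9 to 95.8 in the first cohort and 89.6 to 97.0 in the ApoE KO cohort. A region inside the gene was called in 11 libraries, at 89.6 to 95.3 and 37.8 to 74.6, and was not called in WT oxLDL 2 of the ApoE KO cohort. Another region, 4920 bp on the higher-coordinate side, was also called in 11 libraries, all but WT oxLDL 1 of the ApoE KO cohort, at 65.6 to 84.5 and 54.8 to 85.6. At these 3 regions genotypes and treatments overlapped in percentile. Another 8 of the 18 Tlr4 regions were called in the ApoE KO cohort in KO libraries only (9.96% of all regions), and 0 in WT libraries only (3.89% of all). No other of the 10 genes had as many KO-only regions. Of these 8, 7 were called in KO untreated 1, the longest list of the cohort, 2 in KO untreated 2, 2 in KO oxLDL 1 and 0 in KO oxLDL 2. In lists of equal length the fitted KO minus WT difference in Tlr4 peak count was log2 -0.01.

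The strongest Ly96 region lay 30693 bp on the lower-coordinate side, in Eloc, at 90.4 to 95.5 in the first cohort and 90.7 to 97.6 in the ApoE KO cohort. The region at the lower boundary of Ly96 (chromosome 1, 16687775 to 16689817) had percentiles of 80.1 to 86.6 and 76.1 to 92.2. Its width set the genotypes apart within a cohort: in the ApoE KO cohort it covered 1148 to 1686 bp in KO and 687 to 986 bp in WT (4 libraries each). In the first cohort it covered 1804 and 1695 bp in KO and 1559 and 1655 bp in WT. KO lay above WT without overlap in the ApoE KO cohort, which 6.52% of all shared regions did in bp and 1.79% after dividing by the library's median width. The fitted difference, on the log2 scale after centring each library on its median, was 0.37 (SE 0.12, unadjusted p = 0.00951), and limma's adjusted p over 17343 regions was 0.733, so the difference did not pass.

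The largest genotype difference in score at these genes was at a region 36894 bp on the higher-coordinate side of Ly96, outside any listed gene (chromosome 1, 16746499 to 16747885). To compare scores across lists of different length, each score was ranked among the 17343 regions called in all 12 libraries, from 0 to 100. The rank in the ApoE KO cohort was 39.1 and 29.1 in WT untreated, 14.5 and 26.1 in WT oxLDL, 57.9 and 59.7 in KO untreated, and 73.6 and 65.8 in KO oxLDL. All 4 KO libraries lay above all 4 WT libraries (64.2 ± 7.1 against 27.2 ± 10.1, SD, n = 4 each), which 3.85% of shared regions did. No shared region at the 10 genes had all 4 KO libraries below all 4 WT libraries, against 4.23% of shared regions. In the first cohort KO was also the higher of each pair, with 56.5 against 33.5 untreated and 29.1 against 21.2 with oxLDL, but KO oxLDL lay below WT untreated. The fitted difference was 29.8 rank points (SE 6.14), and limma's adjusted p was 0.131. It did not pass, and ranged from 22.4 to 37.0 under the other settings that kept the rank scale or the percentile scale. Leaving out the first-cohort KO oxLDL library gave 36.5 with an adjusted p of 0.0137. Leaving out any other single library gave limma's adjusted p of 0.0785 to 0.309, and percentiles among all peaks gave 0.244.

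Cd14 encodes the co-receptor that transfers LPS to TLR4 and MD-2, and its window held 22 regions, the most of the 10, in a stretch with 10 genes. Its highest regions lay outside the gene. The region 15747 bp on the lower-coordinate side had percentiles of 89.5 to 94.5 in the first cohort and 93.6 to 98.8 in the ApoE KO cohort. On the other side, the region at 7415 bp had 90.0 to 96.1 and 77.8 to 91.5, and the one at 17255 bp 92.0 to 95.7 and 68.9 to 85.7. The region over its upper boundary was called in all libraries. Its percentiles in the first cohort were 81.1 in WT untreated, 78.1 in KO untreated, 85.5 in WT oxLDL and 88.2 in KO oxLDL. In the ApoE KO cohort they were 67.7, 82.7, 77.6 and 71.6 in the 4 untreated libraries and 50.5, 46.3, 36.6 and 51.5 in the 4 oxLDL libraries. In that cohort the oxLDL libraries were all below the untreated ones, and in the first cohort oxLDL was the higher in both genotypes.

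The same opposite movement was seen on the shared rank, which compares the same set of regions in every library. It orders the same scores again and is not a second observation, and the depth behind the scores is unknown. At the Cd14 boundary the untreated libraries of the ApoE KO cohort had ranks of 43.7 to 61.0 and the oxLDL libraries 8.0 to 28.7, while the first cohort went from 22.3 to 42.3 in WT and from 13.4 to 46.6 in KO. At 23832 bp on the lower-coordinate side the ApoE KO cohort had 41.2 to 58.4 untreated and 17.2 to 30.8 with oxLDL, and the first cohort went from 46.4 to 67.4 and from 51.7 to 67.3. At 45122 bp on the same side, over Apbb3 and Slc35a4, the ranks were 62.1 to 66.8 and 45.5 to 55.2, and the first cohort went from 61.8 to 67.7 and from 41.6 to 58.2. Lower ranks with oxLDL in all ApoE KO libraries were found at these 3 of the 39 shared regions (1.72% of all shared regions), and with higher ranks in the first cohort also at these 3 (0.634% of all).

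The difference of the oxLDL effect between cohorts was fitted after this pattern had been seen. It was -55.7 rank points at the Cd14 boundary (SE 8.45, unadjusted p = 0.000196, limma's adjusted p = 0.110), and -49.1 (SE 8.47, adjusted p = 0.112) and -24.3 (SE 6.15, adjusted p = 0.147) at the regions at 23832 and 45122 bp. Further Cd14 regions at 15747 and 7415 bp gave -23.2 (adjusted p = 0.146) and -31.6 (adjusted p = 0.191). Over the 39 shared regions, 8 had an unadjusted p under 0.05 in that direction (7.78% of all shared regions) and 1 in the other (7.45%), a region 28868 bp upstream of Tlr9 at 40.4 (SE 9.71, adjusted p = 0.140). None of the 39 passed after adjustment, and 0% of all 17343 shared regions did. The first cohort has 1 library per group, so its oxLDL effect rests on a pair of libraries in each genotype.

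**Figure D4:**
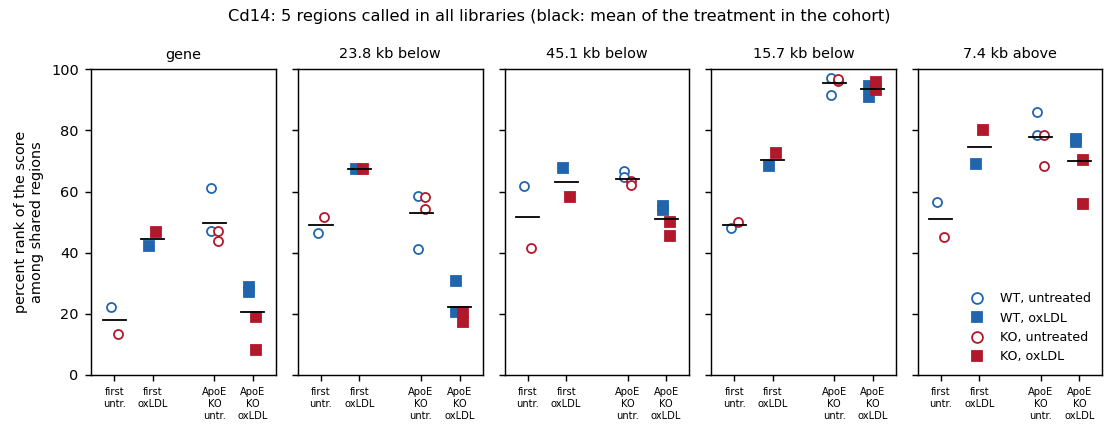
Percent rank of the score among the shared regions (y axis, 0 to 100) at 5 regions of the Cd14 window (panels, titled by distance from the gene on the lower- or higher-coordinate side), by cohort and treatment. Each point is 1 library and each black line the mean of 2 first-cohort or 4 ApoE KO libraries; at the gene the ApoE KO oxLDL libraries sit between 8.0 and 28.7, below the untreated ones at 43.7 to 61.0.

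Among shared regions, the reverse direction within the ApoE KO cohort, oxLDL above untreated without overlap, was met by the Tlr2 region 43040 bp upstream (2.04% of all). Its ranks were 92.7 to 96.9 untreated and 97.1 to 99.6 with oxLDL. In the first cohort the ranks there were 90.4 and 96.8 untreated and 96.6 and 97.3 with oxLDL. The fitted differences for this region did not pass for oxLDL.

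Tlr9 encodes the endosomal DNA receptor, and its start region (chromosome 9, 106221886 to 106223415) was called in 9 of 12 libraries. The first-cohort percentiles were 80.7, 80.0, 71.0 and 71.4 in WT untreated, KO untreated, WT oxLDL and KO oxLDL. In the ApoE KO cohort 5 libraries had a call: 15 in 1 WT untreated, 47.6 and 19.5 in KO untreated, 12.1 in 1 WT oxLDL and 12.3 in 1 KO oxLDL library. The strongest region of the window, 33761 bp downstream, was called in all libraries at 93.8 to 96.5 and 73.3 to 88.3. The next were a region 2868 bp downstream, at 70.5 to 86.5 and 70.7 to 84.9, and one 18812 bp upstream in Twf2, at 72.5 to 79.8 and 64.1 to 88.9. At Tlr9, then, the start was called in every first-cohort library and in part of the ApoE KO libraries, and neither genotype nor treatment divided the calls. Percentiles among all peaks depend on list length, which differed between the cohorts. The part of list length in the percentiles here was not tested.

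Of the adaptor genes, Ticam1, which encodes TRIF, had the strongest start. Its start region (chromosome 17, 56275865 to 56277746) had percentiles of 95.9 in WT untreated, 91.4 in KO untreated, 97.1 in WT oxLDL and 91.3 in KO oxLDL of the first cohort, and 88.1 to 98.5 in the ApoE KO cohort. On the shared rank the first cohort had 77.0 and 86.8 in WT and 51.2 and 58.7 in KO. The ApoE KO cohort had 86.1, 96.6, 86.9 and 88.5 in WT and 80.0, 86.1, 75.9 and 90.5 in KO, so the genotypes overlapped there. The KO minus WT difference was -13.3 rank points (SE 5.00, unadjusted p = 0.0228, limma's adjusted p = 0.257) and did not pass. A still higher region lay 48501 bp upstream in Kdm4b, at percentiles of 99.1 to 99.4 and 93.2 to 99.4. Another, 11636 bp downstream over the Fem1a start, had 94.3 to 97.1 and 84.3 to 95.6.

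Tirap encodes the bridging adaptor. Its start region (chromosome 9, 35199133 to 35200525) was called in all libraries, at 90.9 to 93.7 in the first cohort and 72.5 to 94.2 in the ApoE KO cohort. A stronger region 9838 bp upstream, over the starts of Foxred1 and Srpr, had 99.1 to 99.4 and 96.3 to 98.6. One 7937 bp downstream, over the Dcps start, had 86.7 to 90.5 and 89.2 to 96.1. Myd88 encodes the adaptor shared by TLR1, TLR2, TLR4, TLR6 and TLR9. The region over its start (chromosome 9, 119339565 to 119340437) was called in 8 libraries. It had percentiles of 58.7 to 67.0 in the first cohort, and 6.2, 22.1, 16.7 and 9.5 in the 4 ApoE KO libraries with a call. A region 632 bp upstream of Myd88 (119340650 to 119341985), over a start of Acaa1a, was called in 12 of 12 at 94.5 to 96.1 and 90.1 to 97.6. The Myd88 start therefore lay beside a strong peak at the start of its neighbour. The highest region of that window, 12142 bp downstream over the Oxsr1 start, had 98.1 to 99.3 and 96.1 to 98.7, and one 17171 bp upstream in Xylb had 88.7 to 94.5 and 41.9 to 87.9.

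The promoter letters show how these starts differ. RefSeq promoters (GRCm38.p6, 250 bases before the start, gene strand) were found for 7 of the 10 genes. Tlr4, Cd14 and Ly96 had no entry. Over all 20085 promoters of autosomal genes, the share with the start base in a peak in 12 of 12 libraries was compared by CpG content. It was 58.9% of those with a CpG observed-to-expected ratio of at least 0.6, against 11.5% of those under 0.6. The ratio was 0.73 at Tirap, 0.57 at Myd88, 0.45 at Tlr2, 0.41 at Ticam1, 0.11 at Tlr1 and 0 at Tlr9. The start base lay in a called peak in 12 of 12 libraries at Tirap and Ticam1. It did so in 8 at Tlr2 and at Myd88, in 7 at Tlr9 and in 4 at Tlr1. Ticam1 was thus called throughout with a ratio under 0.6. A merged region over a start can be called in a library whose peak does not reach the start base, so its count can be higher. Within these 6 sequences the capitals mark the motifs searched on both strands. They are shown because the 6 starts span the range from open in all libraries to open in the first cohort only.
Tirap, start 35199905: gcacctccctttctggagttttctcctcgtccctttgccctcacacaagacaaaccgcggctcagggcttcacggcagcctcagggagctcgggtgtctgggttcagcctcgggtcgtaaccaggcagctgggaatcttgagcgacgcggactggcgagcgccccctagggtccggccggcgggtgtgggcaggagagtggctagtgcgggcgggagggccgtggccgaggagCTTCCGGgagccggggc
Ticam1, start 56276767: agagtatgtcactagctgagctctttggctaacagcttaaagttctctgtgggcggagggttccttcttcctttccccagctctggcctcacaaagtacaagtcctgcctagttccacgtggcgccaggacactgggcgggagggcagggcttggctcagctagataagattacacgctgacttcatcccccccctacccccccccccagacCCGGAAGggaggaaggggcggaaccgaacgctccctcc
Tlr2, start 83841608: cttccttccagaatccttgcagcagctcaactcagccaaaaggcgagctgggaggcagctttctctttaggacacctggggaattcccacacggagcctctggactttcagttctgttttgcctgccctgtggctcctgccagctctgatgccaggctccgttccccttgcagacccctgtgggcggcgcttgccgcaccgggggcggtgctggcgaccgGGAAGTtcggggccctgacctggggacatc
Myd88, start 119340018: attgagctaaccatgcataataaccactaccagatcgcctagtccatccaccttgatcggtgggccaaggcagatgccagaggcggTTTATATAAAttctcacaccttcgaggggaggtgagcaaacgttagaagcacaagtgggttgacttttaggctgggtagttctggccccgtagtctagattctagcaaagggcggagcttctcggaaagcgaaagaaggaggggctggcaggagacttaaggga
Tlr9, start 106222598: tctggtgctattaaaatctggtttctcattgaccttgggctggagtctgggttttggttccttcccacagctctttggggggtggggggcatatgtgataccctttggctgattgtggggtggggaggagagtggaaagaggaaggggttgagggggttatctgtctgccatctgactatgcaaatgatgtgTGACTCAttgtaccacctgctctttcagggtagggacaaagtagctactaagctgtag
Tlr1, start 64933558: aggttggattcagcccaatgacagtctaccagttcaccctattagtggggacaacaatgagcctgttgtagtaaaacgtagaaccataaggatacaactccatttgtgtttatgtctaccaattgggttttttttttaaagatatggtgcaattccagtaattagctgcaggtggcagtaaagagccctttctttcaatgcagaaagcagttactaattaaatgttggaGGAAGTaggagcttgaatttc

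Motif matches in these windows are descriptions of letters and not of binding. The ETS and PU.1 core GGAAGT, PU.1 being the main ETS factor of macrophages, lay 30 bases before the start at Tlr2 and 21 before it at Tlr1. It is found in 20.5% of all promoters. The longer ETS form CCGGAAG, present in 9.21%, lay 38 bases before the Ticam1 start and, on the other strand, 17 before the Tirap start. It also lay 207 bases before a second listed Tlr1 start (64932699), which lay in a called peak in 1 of 12 libraries. The AP-1 site TGACTCA, present in 4.09%, lay 58 bases before the Tlr9 start. TATAAA, present in 11.7%, occurred at 160 and, on the other strand, 164 bases before the Myd88 start, where the matches overlap. Matches at the Tlr6 starts were all on the other strand. TATAAA lay 180, 150 and 109 bases before the start at 64960048. GGAAGT lay 62 bases before the start at 64959166. Neither NF-kB form, GGGACTTTC (0.294%) or GGAATTTCC (0.324%), nor the CRE TGACGTCA (1.98%) matched in any of the 7 genes' windows. Only these exact letters were searched, so NF-kB sites written in other letters, at Tlr2 or elsewhere, would have been missed.

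In fits over all genes and all 12 libraries, none of the 10 genes passed the adjusted threshold in peak count for genotype or treatment. Peaks in the window were fitted with limma as log2(peaks + 0.5) for 16709 genes. For KO against WT, 0 of 10 passed an adjusted p of 0.05, and 0% of all genes did. An unadjusted p under 0.05 was reached by 3 genes, all lower in KO, against 6.30% of all genes lower and 2.74% higher. They were Ticam1 (log2 -0.24, SE 0.07, unadjusted p = 0.00748, adjusted p = 0.476), Cd14 (-0.22, SE 0.08, adjusted p = 0.522) and Tlr1 (-0.19, SE 0.08, adjusted p = 0.551). The other estimates were 0.18 at Ly96, 0.06 at Tirap, 0.00 at Myd88, -0.01 at Tlr4, -0.09 at Tlr9 and -0.12 at Tlr6, beside a median of -0.03 over all genes. At Tlr2, where a KO region chose the gene, the value is -0.07, given without a test.

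The Ticam1 counts in the ApoE KO cohort were 8 and 9 in WT untreated, 8 and 8 in WT oxLDL, 6 and 6 in KO untreated, and 7 and 7 in KO oxLDL. In the first cohort WT had 17 and 13 and KO had 14 and 14. Within the ApoE KO cohort alone the Ticam1 difference was -0.32 with an adjusted p of 0.0232 from limma, and 3.06% of all genes passed in that fit (511, of which 441 had no spread between replicates). The replicates of Ticam1 were equal in 3 of the 4 groups, so little spread stands behind that p. Without cutting the lists to equal length it was -0.01, and with peaks of score 50 or more it was 0.00.

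For oxLDL against untreated, 0 of 10 passed and 0% of all genes did. Estimates ran from -0.24 at Tlr4 (SE 0.15, adjusted p = 0.760) to 0.10 at Tlr2 (SE 0.11, adjusted p = 0.844), around a median of 0.0 over all genes. At Tlr4 the ApoE KO counts were 5, 4, 5 and 4 untreated and 3, 3, 5 and 3 with oxLDL. The genotype-by-treatment term had an unadjusted p under 0.05 at 0 of 10 genes, with a lowest adjusted p of 0.937. Between the cohorts, the KO effect differed with an unadjusted p under 0.05 upward at Ly96 and Tlr6 (3.15% of all genes) and downward at Ticam1 (3.35%). The lowest adjusted p was 0.0537, at Tlr6 (0.37, SE 0.05), and 0.587% of all genes passed. All 8 ApoE KO libraries had 2 peaks at Tlr6, so the spread behind that value comes from the first cohort.

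At the 39 shared regions, of which the 3 at Tlr2 are a description only for genotype, 0 passed for genotype in rank, against 0.0173% of all shared regions (3 of 17343). An unadjusted p under 0.05 was reached by 4, 1 higher in KO (7.51% of all) and 3 lower (7.50% of all). The higher one was the Ly96 region at 36894 bp described above. The lower ones were the Ticam1 start, a Cd14 region over Ndufa2 and Ik at 17255 bp (-16.3, SE 5.91, adjusted p = 0.242) and a region 2868 bp downstream of Tlr9 (-13.2, SE 5.29, adjusted p = 0.277). For oxLDL, 0 of 39 passed (0% of all) and 0 had an unadjusted p under 0.05. Opposite movement in the cohorts, as at Cd14, shrinks such an estimate and adds to its spread. The 3 Tlr2 regions had KO minus WT ranks close to 0, shown in the plot of estimates and given without a test.

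**Figure D5:**
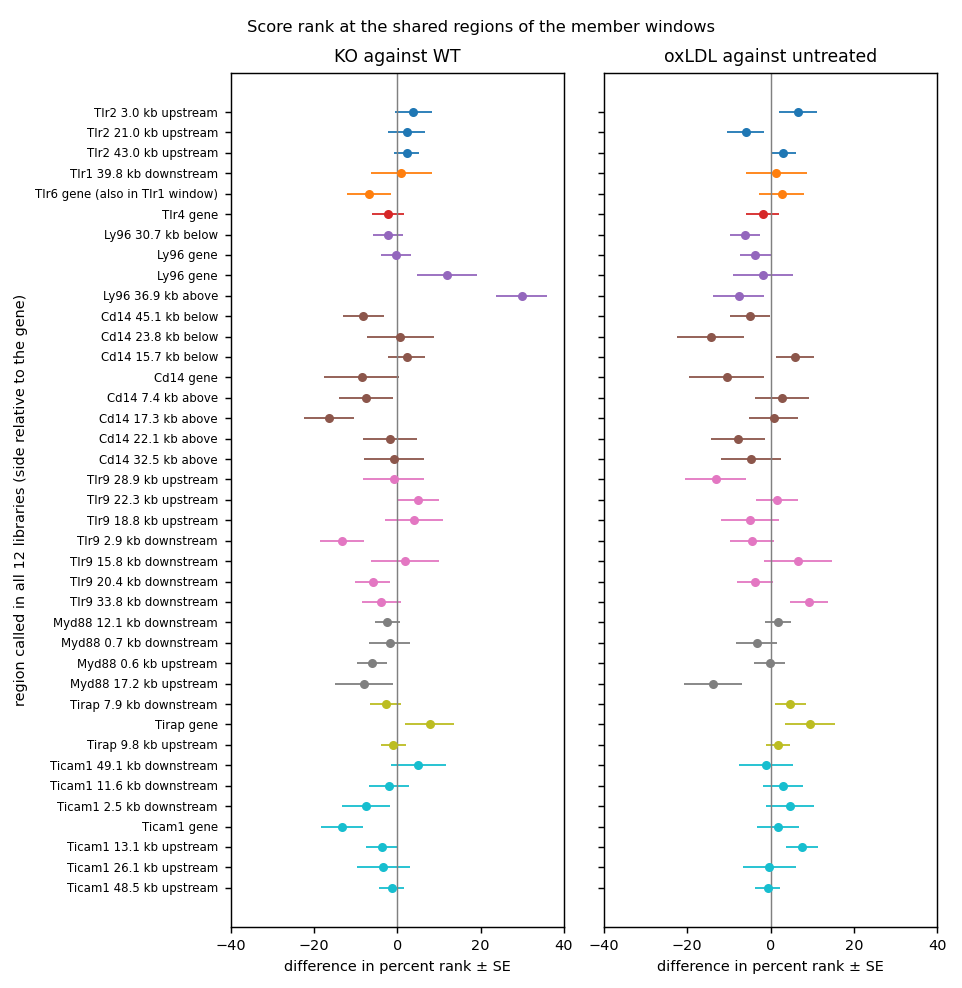
KO minus WT (left) and oxLDL minus untreated (right) difference in the percent rank of the score (x axis, points ± SE from the limma fit) at the 39 regions called in all 12 libraries (y axis, grouped and coloured by gene). The Ly96 region 36.9 kb above the gene stands farthest from 0 for genotype, at 29.8; no region passed after adjustment, and the 3 Tlr2 points on the left are a description only.

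Widths showed no call either. For genotype 0 of 39 passed (0% of all), with 3 wider (4.05% of all) and 1 narrower (2.56% of all) in KO at an unadjusted p under 0.05. The wider ones were the Ly96 boundary, a second region inside Ly96 (log2 0.37, SE 0.16) and a Cd14 region over Wdr55 (0.66, SE 0.16). In the ApoE KO cohort the Wdr55 region covered 348 to 669 bp in KO and 187 to 293 bp in WT, without overlap, as 6.52% of all shared regions did in bp. After dividing by the library's median width, the KO libraries no longer all lay above the WT libraries there. The narrower one lay 17171 bp upstream of Myd88 (-0.36, SE 0.11). Adjusted p was 0.733 for each. For oxLDL 0 of 39 passed (0% of all), with 2 wider (2.94% of all) and 2 narrower (4.18% of all) unadjusted and a lowest adjusted p of 0.675.

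Separation without overlap at these genes was mostly between the cohorts. Of the 39 shared regions, 8 ranked lower in all 8 ApoE KO libraries than in all 4 first-cohort libraries (14.7% of all shared regions) and 12 ranked higher (17.5%). The lower ones included the region inside Ly96, at 76.0 to 95.9 in the first cohort and 5.9 to 46.3 in the ApoE KO cohort. The higher ones included the boundary of Tlr4, the region beside Myd88 and the Tlr2 regions at 3035 and 20991 bp. The boundary of Ly96 was also among them, with 23.7 to 34.3 in the first cohort and 66.6 to 82.2 in the ApoE KO cohort.

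Other genes of the pathway were read from a list of 40, of which 35 are autosomal and 34 had enough peaks to test. For KO against WT 0 of 34 passed, 15 estimates were above 0 and 19 below, and the median was -0.05 beside -0.03 over all genes. The smallest p-values were at Irf7, an interferon regulatory factor gene (log2 -0.21, SE 0.09, adjusted p = 0.540), Il1rl1, which encodes the IL-33 receptor ST2 (-0.50, SE 0.20, adjusted p = 0.547), and Tlr3, the double-stranded RNA receptor gene (0.36, SE 0.16, adjusted p = 0.551). For oxLDL 0 of 34 passed, with 18 above 0 and 16 below. The smallest p-values were at Hsp90b1, which encodes the chaperone gp96 (0.26, SE 0.11, adjusted p = 0.755), Sigirr, an inhibitory receptor gene (-0.27, SE 0.12, adjusted p = 0.755), and Unc93b1, the gene of the carrier of endosomal receptors (0.20, SE 0.09, adjusted p = 0.755).

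A boundary peak was present in 12 of 12 libraries at 6 of the 10 genes, against 41.6% of all autosomal protein-coding genes. Myd88 is among the 6 through regions 632 bp upstream and 708 bp downstream, while the region over its start was called in 8 libraries. The counts by list were 8 of 10 for kinases and ubiquitin ligases, 6 of 8 for inhibitors, 5 of 7 for ligand handling and chaperones, 1 of 4 for the other Toll-like receptors, 1 of 3 for the other adaptors and 1 of 3 for transcription factors. The other receptors differed from each other. Tlr3 had such a peak in all libraries, Tlr5 in 4 first-cohort and 1 ApoE KO library, and Tlr12 in the first cohort only. Tlr11 had one in all 4 first-cohort libraries and, in the ApoE KO cohort, in 4 of 4 KO and 0 of 4 WT libraries. That last pattern, picked out after its values were seen, was met by 0.0726% of all genes.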

How the data were processed

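The ATAC-seq data are 1 deposited peak list per library. Reads were 150 bases long in pairs, per the labels' protocols, and the tools were Bowtie2 2.3.4.1, SAMtools 1.2, bedtools 2.28.0, Picard, FastQC, Trim Galore, cutadapt and MACS3 (first cohort) or MACS2 (ApoE KO cohort) on mm10, per the submitters' processing notes. For their parameters, any shift of reads for the transposase and the handling of duplicates, the sources used here give nothing. The authors deposited a whole-number score for each peak in all lists. For the ApoE KO cohort the deposited lists add a fold enrichment and −log10 p and q values, of which only the fold was used.

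Autosomal peaks (19 chromosomes) overlapping by at least 1 bp were merged across libraries (Python 3.11.15, pandas 2.3.3). A region counts as shared when called in 12 of 12 libraries. RefSeq gene positions and promoters came from GRCm38.p6, the assembly of mm10, and a window is the gene with 50 kb on each side. Peaks per window were counted in lists cut, within a cohort, to the length of the shortest. Fits with limma 3.58.1 (R 4.3.3) used log2(peaks + 0.5) of genes averaging 1 peak or more, the percent rank of the highest score among shared regions, and log2 width minus the library median. The model held the 4 genotype-by-treatment groups and cohort, over all 12 libraries, with Benjamini-Hochberg adjustment over all features, and was tested on simulated data. The cohort terms were added after the data had been seen. Members, lists and rules were chosen with earlier results of these data known. The genes and regions named are the 10 members with their start or boundary regions, the Tlr2 region, regions with at least 4 more calls in one condition, the 3 regions per gene with the highest mean percentile, and the 3 pathway genes with the smallest p per contrast. Further regions are named where a count includes them. Gene boundaries stand in for the start where no promoter entry was given.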

Additional observations from a re-analysis of the deposited data

How the results depend on the processing

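No member gene and no shared member region passed after adjustment in any of the fits over both cohorts with all libraries, under either contrast. Genes passing for KO against WT numbered 0 for peaks near genes, 511 in the ApoE KO cohort alone (441 of them with no spread between replicates) and 1 with no filter on low values, and 1 member passed in the ApoE KO cohort alone (Ticam1). For oxLDL they numbered 0, then 442 in the ApoE KO cohort alone (419 with no spread), 20 in the full lists and 1 with no filter. Shared regions passing in rank for KO against WT numbered 3, then 5 on normal quantiles. They numbered 0 in the ApoE KO cohort alone, on percentiles among all peaks and with a score of at least 50. For oxLDL they numbered 0, and 1 with a score of at least 50. In width for KO they numbered 0, and 1 in the ApoE KO cohort alone. The cause of these shifts was not tested. The 3 libraries with a lane mark in the file name were WT untreated 1 and 2 and KO oxLDL 1 of the ApoE KO cohort. In that cohort the mark goes with genotype among untreated libraries and with treatment among WT libraries, so these cannot be told apart. Without these libraries 1 WT untreated library is left, so no count is given for that fit.

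Leaving out 1 library at a time gave 0 to 88 genes for KO and 0 to 52 for oxLDL in peaks, 0 to 83 regions for KO and 0 to 1 for oxLDL in rank, 0 to 2 for KO and 0 for oxLDL in width, and 0 to 1 member regions in rank for KO (the Ly96 region at 36894 bp, without the first-cohort KO oxLDL library). Member regions called in at least 5 KO and at most 1 WT library numbered 1, then 0 with lists of equal length or when 50% had to be covered. For treatment they numbered 0. With 1 library left out, the rule asked for calls in all but 1 of the libraries left in a condition. It was thus looser when a library of that condition was dropped. Under it the counts were 1 to 2 for genotype and 0 to 1 for treatment.

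Same-numbered libraries of the ApoE KO cohort did not deviate together (correlations of -0.14 to 0.08), so the numbers do not pair them. With the replicate number as a block, 0 genes passed for KO and 0 for oxLDL in peaks, 2 regions for KO in rank against 3, and 0 in width. Full lists shifted the median of all genes to 0.206 for KO and -0.272 for oxLDL, and changed the sign of 3 of 10 member estimates for KO and 4 of 10 for oxLDL, none of them past the threshold. With a score of at least 50, 5 of 10 for KO and 1 of 10 for oxLDL changed sign. On percentiles among all peaks, the Cd14 boundary difference of the oxLDL effect between cohorts was -35.9 (adjusted p = 1.0), against -55.7 on the rank scale (adjusted p = 0.110) and -1.66 on normal quantiles (adjusted p = 0.142).

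What limits these data is the small number of libraries, 1 per group in the first cohort, and lists without reads. A peak list shows neither depth nor signal where no peak was called. Scores come from MACS3 in the first cohort and MACS2 in the ApoE KO cohort, so levels were compared only as ranks within a library.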
